A study of Mus musculus with 11 samples.

Results

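The 10 genes described here are Notch pathway genes and Deltex genes of the mouse: the ligands Jag1 and Jag2, the receptors Notch1 and Notch2, the nuclear effector Rbpj, the target repressors Hes1 and Hey1, and the Deltex ubiquitin ligases Dtx2, Dtx3l and Dtx4. They were chosen by gene name, with earlier results of these libraries known, from the 54532 genes of a read count table. Their levels and the differences between the ages were therefore in view when they were picked, and the difference of the 2 caerulein responses is given for them as a description, without a p-value. Where a count of calls in that difference is printed, nothing is read from it about the 10 genes. All 10 were found in the table and all 10 passed the filter on low counts that left 14113 genes.

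Messenger RNA was sequenced from the whole pancreas of C57BL/6JRj mice, the inbred laboratory strain of all 4 groups, and the labels name no transgene or deleted allele. Young mice were 7 weeks old and aged mice 18 months. Untreated mice (labels Y_control and A_control) were compared with mice given caerulein (Y_5H and A_5H), a cholecystokinin analogue that makes acinar cells secrete and injures them in excess. Mice got 4 hourly injections of 125 µg/kg into the peritoneum. The notes on the time of sampling can be read in more than 1 way, so 5H is used only as a label. Untreated mice gave 3 young and 2 aged libraries and treated mice 3 at each age, each from a separately numbered mouse (mice 2 and 3 in the aged untreated group). The stated aim of the study was to see how age affects the start of pancreatitis.

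In Notch signalling a ligand on one cell binds a receptor on its neighbour. The receptor is then cut by ADAM10 and by gamma-secretase, and the freed intracellular domain joins RBPJ and Mastermind proteins in the nucleus to switch on repressors of the Hes and Hey families. Deltex proteins are ubiquitin ligases, and the founding member, in Drosophila, acts on Notch in endosomes. In the adult pancreas Hes1 marks centroacinar and duct cells, and the pathway is known to become active in acinar cells after caerulein injury.

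Between 14223190 and 26537091 reads were counted in each library. Levels are CPM scaled by TMM factors, which lay between 0.696 and 1.29. Acinar cells make up most of the pancreas, and 6 of their markers summed to 306722 to 498807 CPM in young untreated and 202766 to 231172 CPM in young caerulein libraries, and to 421252 to 525309 and 200679 to 254720 CPM in aged ones. In CPM of unscaled library totals the sums were 336114 to 372436 in untreated and 254190 to 274652 in treated libraries. All 6 were called lower after caerulein at both ages, so this fall stands beside every caerulein response below, and its part in them was not tested. The library of young untreated mouse 2 stood apart. Its 8 B cell markers, all detected, summed to 159 CPM against 0.0395 to 1.49 CPM in the other 10 libraries, and its 7 T cell markers, also all detected, to 86.3 CPM against at most 1.41 CPM. Its adipocyte markers reached 226 CPM against at most 24 CPM, its macrophage markers 313 CPM against 31.2 to 69.3 CPM, and 10 interferon-stimulated genes 32.5 CPM against 4.57 to 8.74 CPM. Its 7 duct markers were the lowest, at 123 CPM against 241 to 319 CPM. In bulk tissue, fewer cells of a type and less RNA per cell cannot be told apart.

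Caerulein was followed by higher Dtx2 and Hes1 and lower Jag1 at both ages. Dtx4 rose 5.55-fold in young mice and 1.64-fold in aged mice. Notch1 rose at both ages, and Notch2 was called higher in aged mice. By edgeR's quasi-likelihood test at an adjusted p below 0.05, 4 of the 10 genes were higher and 3 lower in young mice, where 27.5% of all 14113 genes tested were higher and 24.7% lower. In aged mice 5 were higher and 1 lower, where 27% of all genes were higher and 21.2% lower. The median log2 fold change of the 10 genes was 0.31 in young and 0.53 in aged mice, and that of all genes -0.061 and 0.070. Since the 10 genes were picked with results known, these counts describe them and are no evidence that the pathway stands out.

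**Figure D1:**
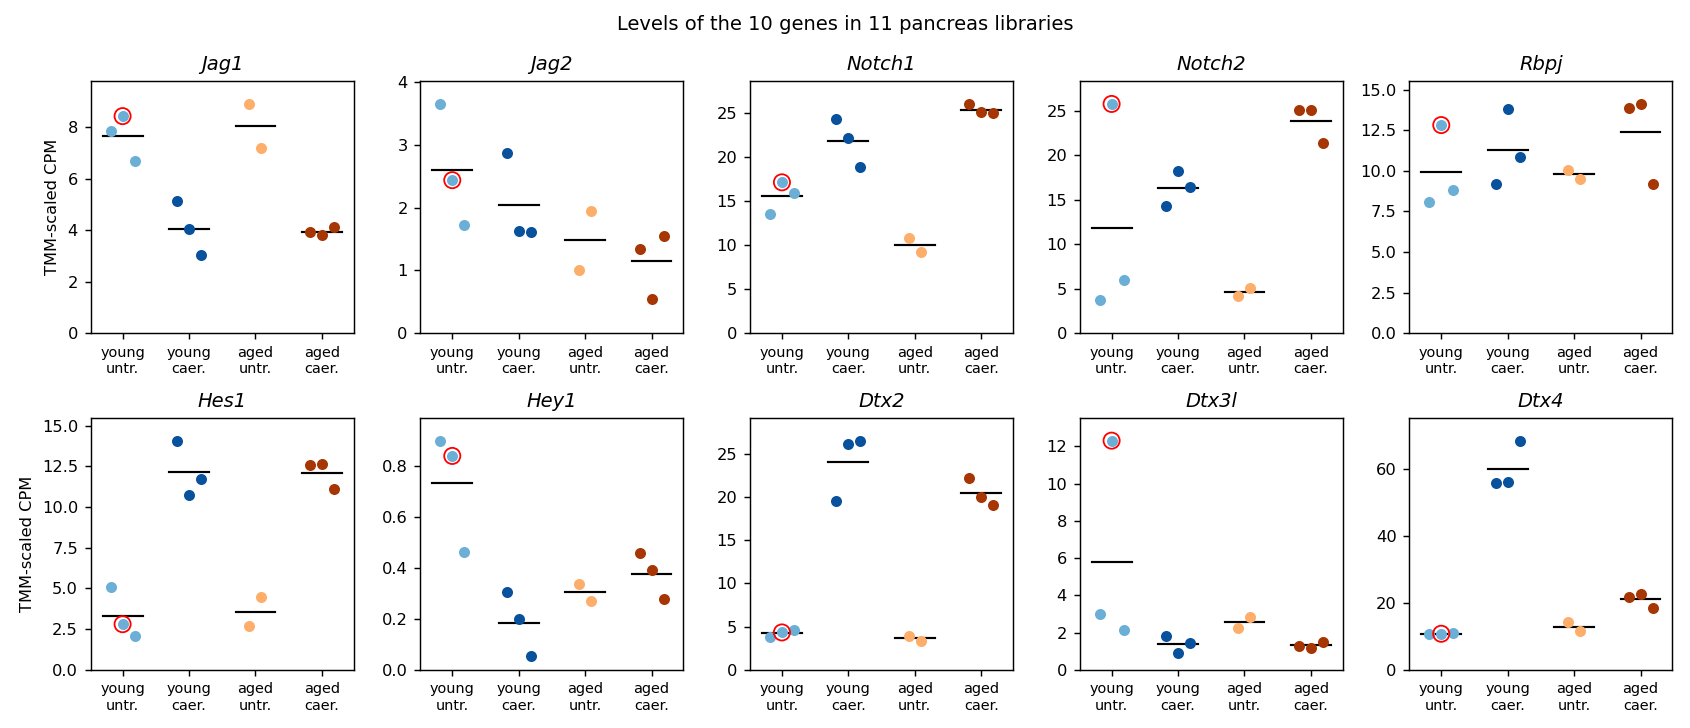
Levels of the 10 genes in each of the 11 libraries, in TMM-scaled CPM on linear axes that start at 0, by group. Points are libraries, black lines are group means, and a red ring marks young untreated mouse 2, which was the highest young untreated library for Notch2 (25.8 CPM) and Dtx3l (12.3 CPM).

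The ligand Jag1 (ENSMUSG00000027276, mm10 chromosome 2, 137081456 to 137116644, minus strand) was read at 7.87, 8.43 and 6.67 CPM in young untreated mice 1, 2 and 3 and at 5.14, 4.03 and 3.01 CPM after caerulein. Aged mice had it at 8.91 and 7.20 CPM untreated and at 3.93, 3.80 and 4.11 CPM after caerulein. Every treated library lay below every untreated one of its age. The log2 fold change was -0.91 ± 0.20 (SE) in young mice (edgeR adjusted p = 0.00301) and -1.02 ± 0.22 in aged mice (adjusted p = 0.00287), and the difference of the responses, aged minus young, was -0.11 ± 0.30. With scaling by library totals alone Jag1 was at -0.43 and -0.42 and not called at either age. That scaling moved the median of all genes to 0.433 in young and 0.689 in aged mice.

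Jag2 (ENSMUSG00000002799, chromosome 12, 112907819 to 112929776, minus strand), the second Jagged ligand, was rarer. It had 3.65, 2.44 and 1.73 CPM in young untreated and 2.88, 1.62 and 1.61 CPM in young caerulein libraries. The aged libraries held 1.01 and 1.95 CPM untreated and 1.34, 0.536 and 1.55 CPM after caerulein. The groups overlapped at both ages, and Jag2 did not pass in young (-0.35 ± 0.44, edgeR adjusted p = 0.523) or aged mice (-0.39 ± 0.52, adjusted p = 0.568). Its sign was positive under library totals alone (0.17 and 0.26).

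The receptor Notch1 (ENSMUSG00000026923, chromosome 2, 26457903 to 26516663, minus strand) had 13.5, 17.1 and 15.9 CPM in young untreated libraries and 24.3, 22.1 and 18.9 CPM after caerulein. Aged untreated libraries held 10.8 and 9.15 CPM, and aged caerulein libraries 26, 25.1 and 24.9 CPM. The treated libraries were above the untreated ones at both ages. The aged untreated libraries were also the lowest of all 11, and the aged caerulein libraries the highest. The log2 fold change was 0.49 ± 0.13 in young (edgeR adjusted p = 0.00826) and 1.35 ± 0.15 in aged mice (adjusted p = 3.11e-05), and the responses differed by 0.87 ± 0.20. The authors' deposited table gives 0.46 with an adjusted p of 0.0535 for Notch1 in young mice, and 1.32 with 1.36e-11 in aged mice. An antisense gene inside Notch1, 0610009E02Rik, had 51 reads over all libraries against 4367 for Notch1.

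Notch2 (ENSMUSG00000027878, chromosome 3, 98013527 to 98150361, plus strand), the other widely expressed receptor and one that B cells also use, depended on young untreated mouse 2. Young untreated mice 1, 2 and 3 had 3.71, 25.8 and 5.93 CPM, and the young caerulein libraries 14.2, 18.3 and 16.4 CPM. Aged untreated libraries had 4.20 and 5.09 CPM and aged caerulein libraries 25, 25.1 and 21.4 CPM. In young mice the groups overlapped only through mouse 2, the library with B cell markers at 159 CPM, and in aged mice they did not overlap. The aged response was 2.35 ± 0.66 (edgeR adjusted p = 0.0122), or 5.10-fold. It lost its call without aged untreated mouse 2 (2.24, adjusted p = 0.0904) or mouse 3 (2.52, adjusted p = 0.0735), each of which leaves 1 library whose spread is taken from the other groups. The young response did not pass with all libraries (0.44 ± 0.52, adjusted p = 0.492) and was 1.71 without young untreated mouse 2 (adjusted p = 3.13e-06). The difference of the responses went from 1.91 ± 0.82 to 0.57 without that library. Between the treated groups Notch2 was 0.55 ± 0.51 higher on the log2 scale in aged mice (adjusted p = 0.641), and 0.53 without young untreated mouse 2 (adjusted p = 0.0245). The authors' deposited table, for the treated groups, gives 0.53 with an adjusted p of 0.00523. With a covariate made from the B and T cell markers the young response was 1.62 (edgeR adjusted p = 1.44e-05). Those markers were high in young untreated mouse 2 alone, so that fit cannot tell B cells from other traits of this library. The part of B cells apart from that library was not tested.

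Rbpj (ENSMUSG00000039191, chromosome 5, 53466152 to 53657362, plus strand), through which all Notch receptors act on DNA, had 8.09, 12.8 and 8.80 CPM in young untreated and 9.19, 13.8 and 10.9 CPM in young caerulein libraries. Aged libraries held 10.1 and 9.48 CPM untreated and 13.9, 14.1 and 9.21 CPM after caerulein. The groups overlapped at both ages. Rbpj did not pass in young (0.18 ± 0.22, edgeR adjusted p = 0.508) or aged mice (0.35 ± 0.26, adjusted p = 0.289).

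Hes1 (ENSMUSG00000022528, chromosome 16, 30064384 to 30067796, plus strand), the repressor most used as a readout of Notch, had 5.06, 2.80 and 2.07 CPM in young untreated libraries and 14.1, 10.7 and 11.7 CPM after caerulein. Aged libraries held 2.69 and 4.44 CPM untreated and 12.6, 12.6 and 11.1 CPM after caerulein. No treated library overlapped an untreated one. The log2 fold change was 1.88 ± 0.29 in young (3.69-fold, edgeR adjusted p = 0.000244) and 1.74 ± 0.33 in aged mice (3.34-fold, adjusted p = 0.00126), and the responses differed by -0.14 ± 0.43. Markers of duct cells, which are known to use Hes1, summed to 123 to 272 CPM in young untreated, 280 to 308 CPM in young caerulein, 241 to 256 CPM in aged untreated and 271 to 319 CPM in aged caerulein libraries. At each age 3 of the 7 duct markers were called higher and 1 lower, with none of the 7 at 0 in any library. The keratin Krt19, among those called higher, rose by 3.60 ± 0.39 and 3.52 ± 0.47 on the log2 scale and does not stand for all 7. The part of duct cells or duct genes in the rise of Hes1 was not tested.

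Hey1 (ENSMUSG00000040289, chromosome 3, 8663359 to 8667256, minus strand), a Notch target best known in blood vessels, was near the limit of the depth. It had 16, 21 and 8 reads in the young untreated libraries and 7, 5 and 1 in the young caerulein libraries. Aged mice had 4 and 5 reads untreated and 12, 8 and 5 after caerulein. The young groups did not overlap in CPM and the aged groups did. The young value of -1.93 ± 0.59 passed (edgeR adjusted p = 0.0174) but not when low counts were left unfiltered (-1.89, adjusted p = 0.0647) or with library totals (-1.45, adjusted p = 0.0848), and in the authors' deposited table it stands at -1.99 with an adjusted p of 0.0841. The aged response was 0.33 ± 0.68 (adjusted p = 0.728), and the difference was 2.26 ± 0.90. Without young untreated mouse 1 or mouse 2, or with the stricter filter, Hey1 fell below the filter and was not tested. Endothelial markers, 9 in all with none at 0, summed to 119 CPM in mouse 2 and 37.3 to 63.3 CPM in the other 10 libraries, and their part in Hey1 was not tested.

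Of the Deltex genes, Dtx2 (ENSMUSG00000004947, chromosome 5, 135994800 to 136032872, plus strand), which like Dtx4 carries the WWE domains that bind Notch, had 3.82, 4.32 and 4.55 CPM in young untreated libraries and 19.6, 26.1 and 26.5 CPM after caerulein. Aged libraries held 3.95 and 3.30 CPM untreated and 22.2, 20.0 and 19.1 CPM after caerulein. Treated libraries were far above untreated ones and the ages overlapped after treatment. Dtx2 rose 5.68-fold at both ages (log2 fold change 2.51 ± 0.15 in young, edgeR adjusted p = 2.68e-07, and 2.50 ± 0.18 in aged, adjusted p = 1.48e-06). The difference of the responses was -0.0014 ± 0.30.

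Dtx4 (ENSMUSG00000039982, chromosome 19, 12466341 to 12501996, minus strand), a Deltex ligase studied in cultured cells for the uptake of Notch1, had 10.7, 10.8 and 11 CPM in young untreated libraries and 55.9, 56.1 and 68.5 CPM after caerulein. Aged untreated mice had 14.4 and 11.4 CPM, and aged caerulein mice 21.8, 22.8 and 18.5 CPM. The treated libraries exceeded the untreated ones at both ages, and every aged caerulein library was below every young caerulein library. The young response was 2.47 ± 0.14 on the log2 scale (edgeR adjusted p = 1.48e-07) and the aged response 0.71 ± 0.15 (1.64-fold, adjusted p = 0.00253). Treated aged mice were 1.52 ± 0.13 below treated young mice on the log2 scale, or 2.86-fold lower, and the difference of the responses was -1.76 ± 0.20. The authors' deposited table has Dtx4 at -1.54 in treated aged against treated young mice. Untreated mice of the 2 ages were close (0.25 ± 0.15, adjusted p = 0.601).

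**Figure D2:**
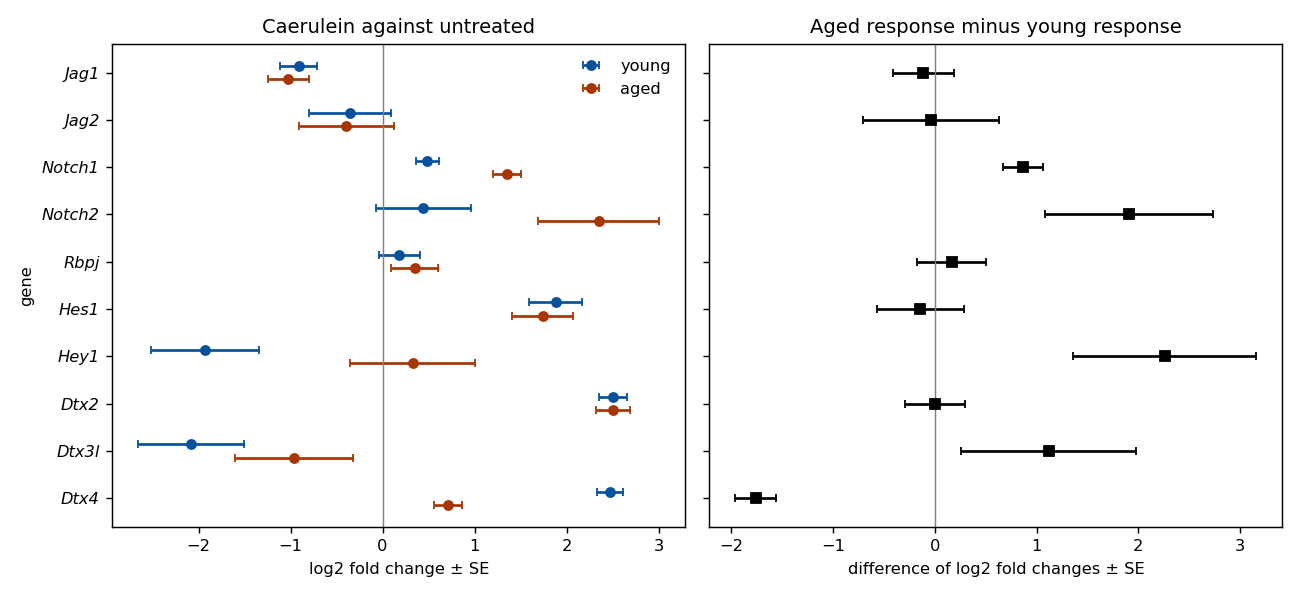
Left, log2 fold change ± SE of caerulein against untreated for the 10 genes in young (blue) and aged (orange-brown) mice; right, the aged response minus the young response ± SE. Dtx2 sits at 2.51 and 2.50 with a difference of -0.0014, and Dtx4 at 2.47 and 0.71 with a difference of -1.76.

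For the difference of the responses edgeR called 2 of the 14113 genes tested, 1 higher (0.00709% of the genes tested) and 1 lower (0.00709%), 1758 genes were at an unadjusted p below 0.05, and DESeq2 called 282. The lower one was Dtx4 and the higher one Atp6v1b2, a subunit of the vacuolar proton pump, with an aged response larger by 1.71 ± 0.19. The test reuses the values with which Dtx4 was chosen and is no independent support for it. The Dtx4 difference stayed between -1.92 and -1.60 when each library was left out in turn. Its call was lost without young caerulein mouse 1 (-1.81) or 3 (-1.66), aged untreated mouse 2 (-1.60) or 3 (-1.92), and aged caerulein mouse 2 (-1.83) or 3 (-1.68). It was also lost with the mouse number as a block (-1.75) and with library totals (-1.66). Between the treated groups, whose libraries also enter the difference, the value of Dtx4 was between -1.58 and -1.41 in the same fits. Dtx4 was called lower there and the other 9 genes were not called, where 2.46% of all genes were higher and 1.27% lower in aged mice.

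Dtx3l (ENSMUSG00000049502, chromosome 16, 35926511 to 35939151, minus strand) is a Deltex ligase that lacks the WWE domains and pairs with the ADP-ribosyltransferase PARP9 in DNA damage and interferon responses. It had 2.98, 12.3 and 2.13 CPM in young untreated mice 1, 2 and 3 and 1.79, 0.909 and 1.46 CPM after caerulein. Among aged mice it had 2.27 and 2.82 CPM untreated and 1.26, 1.17 and 1.5 CPM after caerulein. The treated libraries were below the untreated ones at both ages, and young untreated mouse 2 stood far above the rest. That library also held the highest sum of interferon-stimulated genes, 32.5 CPM against 4.57 to 8.74 CPM, and their part in its Dtx3l was not tested. The young response was -2.08 ± 0.57 (edgeR adjusted p = 0.0107) and the aged response -0.96 ± 0.64 (adjusted p = 0.242). Without young untreated mouse 2 they were -0.94 (adjusted p = 0.0263) and -1.03 (adjusted p = 0.0177), and their difference went from 1.1 ± 0.86 to -0.095. The young call was lost under library totals (-1.78, adjusted p = 0.0573).

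**Figure D3:**
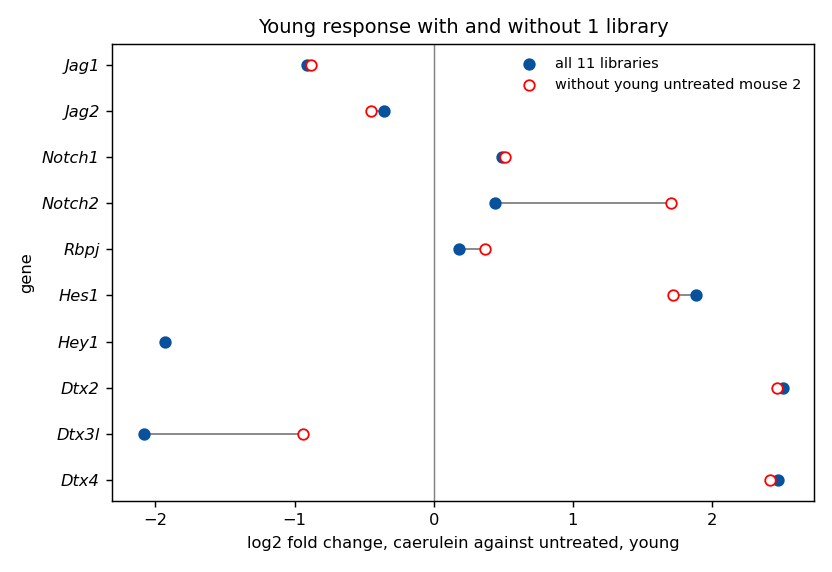
Log2 fold change of caerulein against untreated in young mice for the 10 genes with all 11 libraries (blue) and without young untreated mouse 2 (red rings). Notch2 moves from 0.44 to 1.71 and Dtx3l from -2.08 to -0.94, while Dtx2 stays at 2.51 and 2.47; Hey1 has no second point because it was then not tested.

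Dtx3l and Parp9 lie head to head, and their annotated spans overlap, with starts 681 bases apart (Parp9 at 35938470 on the plus strand and Dtx3l at 35939151 on the minus strand). The strand setting of the counting is not given in the sources used here, so reads of the overlap cannot be told apart. Parp9 had 3.88, 8.27 and 4.72 CPM in young untreated and 1.61, 1.62 and 2.44 CPM in young caerulein libraries. Its level, too, was highest in young untreated mouse 2. Parp9 fell by 1.58 ± 0.32 on the log2 scale in young mice (edgeR adjusted p = 0.00186) and was at -0.87 ± 0.35 in aged mice (adjusted p = 0.0612). The sequences below show the stretch before the start of Dtx3l, of which 179 of 250 bases lie inside annotated exons of its partner. Beside it are the stretches before Dtx2 and Notch2. Among the members with a window at hand, Dtx2 and Notch2 had the largest caerulein responses in aged mice (in young mice Notch2 did not pass). Each is the stretch of 250 bases before the RefSeq start on build GRCm38.p6, 5′ to 3′ on the strand of the gene. Dtx3l is chr16:35939028-35939277 (minus strand), and its capitals mark 179 bases inside annotated exons of Parp9. Its RefSeq start lies inside the span that the deposited table gives to Dtx3l. Dtx2 is chr5:135994550-135994799 (plus strand) and Notch2 is chr3:98013288-98013537 (plus strand), and in these capitals mark CpG pairs.
Dtx3l: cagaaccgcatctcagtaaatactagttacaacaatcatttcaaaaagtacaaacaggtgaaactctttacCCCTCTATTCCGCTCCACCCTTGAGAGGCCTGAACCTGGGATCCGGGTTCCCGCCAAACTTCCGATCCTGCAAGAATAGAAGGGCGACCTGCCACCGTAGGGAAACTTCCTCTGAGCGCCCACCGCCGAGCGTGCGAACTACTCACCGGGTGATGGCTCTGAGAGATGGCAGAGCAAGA
Dtx2: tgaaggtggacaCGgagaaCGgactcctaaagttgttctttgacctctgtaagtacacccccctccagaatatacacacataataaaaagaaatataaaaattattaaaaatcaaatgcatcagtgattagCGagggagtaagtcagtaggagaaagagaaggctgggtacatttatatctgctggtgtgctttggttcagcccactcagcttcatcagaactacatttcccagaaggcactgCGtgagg
Notch2: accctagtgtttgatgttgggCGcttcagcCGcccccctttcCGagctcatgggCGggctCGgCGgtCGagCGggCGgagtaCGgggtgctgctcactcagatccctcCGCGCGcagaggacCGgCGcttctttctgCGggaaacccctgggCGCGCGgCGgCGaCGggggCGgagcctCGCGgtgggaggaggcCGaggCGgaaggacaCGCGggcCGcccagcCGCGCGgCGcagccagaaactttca

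The stretch before Dtx2 held 4 CpG pairs and was 42% G or C, while that before Notch2 held 34 and was 72% G or C. Over the whole windows of 300 bases, 250 before to 50 after the start, Dtx2 had 10 CpG pairs and Notch2 41, against a median of 7 over 32851 promoter windows. RefSeq windows were matched for 7 of the 10 genes (8 windows, with a pair for Rbpj), and Dtx4, Hes1 and Hey1 had none in the table. On either strand, none of the 8 windows held the RBPJ motif GTGGGAA, the AP-1 motif TGANTCA, the cAMP response motif TGACGTCA or the interferon response motif. Of all windows, 6.38%, 7.81%, 1.79% and 3.44% held them in that order. No match says only that these letters are not in these windows.

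Set against each other per kilobase of gene length, the levels had Dtx4 first in young caerulein libraries (10.4 ± 1.25 CPM per kilobase, SD, n = 3), above Hes1 (5.98 ± 0.84) and Dtx2 (3.42 ± 0.56), with no overlap between these neighbours. Notch1 (1.53 ± 0.19) and Notch2 (1.51 ± 0.19) came next and overlapped. In aged caerulein libraries Hes1 (5.94 ± 0.42) came before Dtx4 (3.64 ± 0.39), Dtx2 (2.91 ± 0.23), Notch2 (2.21 ± 0.20) and Notch1 (1.78 ± 0.041), and none of these 5 overlapped its neighbour. The order of Notch2 and Notch1 rests on the deposited gene lengths. In CPM without that division Notch1 (24.9 to 26 CPM) and Notch2 (21.4 to 25.1 CPM) overlapped in those libraries. In untreated libraries Dtx4 was first (1.88 ± 0.025 in young and 2.24 ± 0.36 in aged), but it overlapped Hes1 (1.62 ± 0.76 and 1.75 ± 0.61). Hey1 had the lowest mean level in all 4 groups, between 0.0566 and 0.224 CPM per kilobase.

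Untreated mice of the 2 ages were compared to see the effect of age alone. No member was called by edgeR or by DESeq2. In that comparison 0.0567% of all genes were higher and 0.0354% lower in aged mice. Notch1 was at -0.65 ± 0.15 (edgeR adjusted p = 0.292). Its groups did not overlap, nor did those of Hey1 (lower in aged mice) and Dtx4 (higher in aged mice), while those of the other members did. The share of all genes without overlap was not computed, so nothing is read from these separations. Of the 56 further pathway genes followed below, 7 were higher and 5 lower in aged mice without overlap, and 44 overlapped. Notch2, at -1.36 ± 0.65 (adjusted p = 0.545), was at -0.047 without young untreated mouse 2, and Dtx3l went from -1.19 ± 0.64 to -0.0077.

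The rest of the pathway was followed in a list of 56 further genes written from general knowledge, of which 49 passed the filter. In young mice 10 were higher, 17 lower and 22 not passed, and in aged mice 10 were higher, 11 lower and 28 not passed, against the shares of 27.5% higher and 24.7% lower (young) and 27% and 21.2% (aged) among all genes. Their median log2 fold change was -0.21 in young and -0.23 in aged mice. With library totals alone the young counts were 17 higher and 4 lower, where 5314 of all 14113 genes were higher and 1269 lower. The split between higher and lower depended on scaling in this list as it did among all genes.

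Of the ligands and receptors, the vascular ligand Dll4 was lower in young mice (-1.70 ± 0.63, edgeR adjusted p = 0.0400), a call that was lost without young untreated mouse 2 (-0.74) or with library totals (-1.40). Dll1 was higher in aged mice (1.93 ± 0.73, adjusted p = 0.0465) at 1.87 ± 0.31 CPM (SD, n = 3) against 0.481 ± 0.086 CPM (n = 2). In young mice Dll1 was at 0.064 ± 0.59, and at 1.32 with a call as higher without young untreated mouse 2. Notch3, a receptor of smooth muscle and pericytes, fell by 1.53 ± 0.44 on the log2 scale in young mice (adjusted p = 0.0131), a call lost with library totals (-1.15). In aged mice it was at -0.58 ± 0.50. Smooth muscle and pericyte markers summed to 61.5 CPM in young untreated mouse 2 and to 10.3 to 32.0 CPM in the other libraries, and their part in Notch3 was not tested. The endothelial receptor Notch4 did not pass at either age (-0.23 ± 0.33 and -0.23 ± 0.38).

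Among enzymes that add sugars to the receptor, the Fringe gene Lfng fell most. It had 20.7, 25.1 and 21.0 CPM in young untreated and 1.87, 2.81 and 1.77 CPM in young caerulein libraries. In aged mice it had 25.5 and 26.8 CPM untreated and 5.23, 8.28 and 6.22 CPM after caerulein. No treated library overlapped an untreated one, and the treated groups did not overlap each other. Lfng fell by 3.36 ± 0.21 on the log2 scale in young mice (edgeR adjusted p = 3.96e-07) and by 2.00 ± 0.21 in aged mice (adjusted p = 1.90e-05), and was higher in treated aged than in treated young mice (1.60 ± 0.21, adjusted p = 0.00308). The difference of its responses, 1.36 ± 0.30, did not pass (adjusted p = 0.113) but did without young untreated mouse 2 (1.25, adjusted p = 0.0340). Mfng, a Fringe of lymphocytes, lost its young call (-2.98 ± 1.03, adjusted p = 0.0311) without young untreated mouse 2, at -0.14. Rfng was lower in aged mice (-0.65 ± 0.19, adjusted p = 0.0170), a call lost with library totals (-0.035).

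Of 10 genes for the cutting of the receptor, 3 were higher at both ages and 5 lower in young and 3 in aged mice. Furin, which makes the first cut in the Golgi, had 58.2, 46.5 and 61.9 CPM in young untreated and 112, 125 and 118 CPM in young caerulein libraries. In aged mice it went from 67.4 and 62.7 CPM to 203, 252 and 255 CPM. The treated libraries were higher at both ages, and those of aged mice the highest of all. Furin rose by 1.09 ± 0.14 in young (edgeR adjusted p = 6.87e-05) and 1.86 ± 0.17 in aged mice (adjusted p = 5.22e-06), and was 1.00 ± 0.14 higher in treated aged than treated young mice (adjusted p = 0.00338). Its difference of responses did not pass (0.77 ± 0.21, adjusted p = 0.192), but did without young untreated mouse 2 (0.87, adjusted p = 0.0189). Psenen, a subunit of gamma-secretase, was lower at both ages (-0.95 ± 0.14 and -1.04 ± 0.16), calls that were lost with library totals (-0.41 and -0.44).

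In the nucleus, the coactivator Maml1 rose by 0.96 ± 0.17 in young (edgeR adjusted p = 0.000725) and 1.46 ± 0.20 in aged mice (adjusted p = 0.000133). Maml3 rose in young mice (0.66 ± 0.16, adjusted p = 0.00541) and was at -0.12 ± 0.18 in aged mice (adjusted p = 0.614), and the difference of the responses did not pass (-0.78 ± 0.24, adjusted p = 0.239). Kat2b, an acetyltransferase, was lower in aged mice (-0.45 ± 0.15, adjusted p = 0.0288) but at 0.16 with library totals. The corepressor Ctbp1 rose at both ages (0.49 ± 0.10 and 0.61 ± 0.12). Sin3a, of the corepressor complexes, fell by 1.11 ± 0.22 in young mice (adjusted p = 0.00166), a call lost with library totals (-0.69).

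Among genes of receptor turnover, Numb, an inhibitor that sends Notch to be degraded, rose at both ages (1.45 ± 0.15 and 1.46 ± 0.17, edgeR adjusted p = 1.33e-05 and 4.43e-05), with responses that differed by 0.013 ± 0.22. Young untreated libraries had 7.32 ± 0.54 CPM (SD, n = 3), young caerulein 20.0 ± 1.72 CPM (n = 3), aged untreated 7.60 ± 1.1 CPM (n = 2) and aged caerulein 21.1 ± 3.42 CPM (n = 3). Mib2, which ubiquitinates ligands, rose too (0.78 ± 0.17 and 1.03 ± 0.21). The ubiquitin ligase Nedd4 was lower (-0.54 ± 0.15 and -0.68 ± 0.16), as was Fbxw7, which marks the intracellular domain for degradation (-0.53 ± 0.16 and -0.89 ± 0.17). With library totals the latter pair was not called, at values from -0.29 to -0.0028. Nrarp, a target that limits the pathway, did not pass (0.80 ± 0.60 and -1.49 ± 0.67) at levels of 0.23 to 0.66 CPM.

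Of 7 target repressors on the list 3 could be tested, and at each age 2 of them fell. Hes6, which is known to oppose Hes1, had 13.7, 10.3 and 14.7 CPM in young untreated libraries and 1.79, 2.41 and 1.35 CPM after caerulein. Aged mice had 14 and 17.7 CPM untreated and 1.68, 1.56 and 2.33 CPM after caerulein. Treated and untreated libraries did not overlap, and Hes6 fell by 2.78 ± 0.24 in young and by 3.10 ± 0.26 in aged mice on the log2 scale (edgeR adjusted p = 3.99e-06 and 3.63e-06). Heyl fell by 1.28 ± 0.42 in young (adjusted p = 0.0253, lost with library totals at -0.67) and by 3.01 ± 0.49 in aged mice (adjusted p = 0.000452). Hes5 was among 7 genes too low to test. Rbpjl, the acinar paralog of Rbpj and a subunit of the PTF1 complex, went from 309, 205 and 304 CPM to 42.3, 38.6 and 28.1 CPM in young and from 357 and 447 CPM to 62.3, 59.0 and 60.3 CPM in aged mice. It fell by 2.91 ± 0.20 and 2.73 ± 0.21 on the log2 scale (adjusted p = 7.83e-07 and 2.17e-06), beside the fall of the 6 acinar markers.

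**Figure D4:**
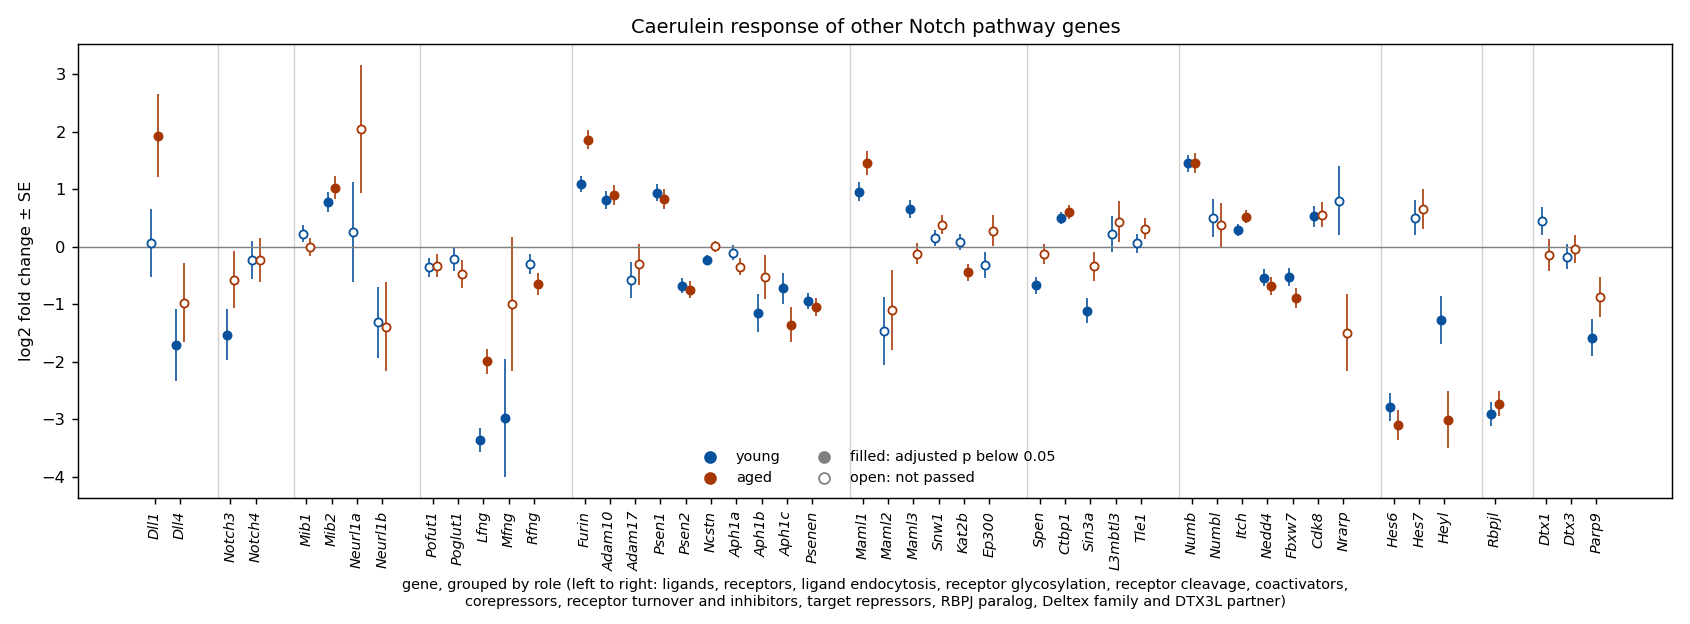
Log2 fold change ± SE of caerulein against untreated for tested genes of the wider pathway list, ordered by role, in young (blue) and aged (orange-brown) mice, with filled points for an edgeR adjusted p below 0.05. Lfng, Hes6, Heyl and Rbpjl are among the genes filled below 0 at both ages, and Numb, Maml1 and Furin are filled above 0 at both ages.

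The Deltex relatives outside the set were also read. Dtx1 was at 0.45 ± 0.24 in young (edgeR adjusted p = 0.138) and -0.14 ± 0.28 in aged mice (adjusted p = 0.716). Its levels were 9.50, 17.8 and 8.06 CPM in young untreated and 15.4, 18.0 and 15.2 CPM in young caerulein libraries, with mouse 2 the high untreated one. Without that library the young response was 0.83 and called (adjusted p = 0.000126), and the difference of the responses was -1.04 (adjusted p = 0.0172) in place of -0.59 ± 0.37. Dtx3 did not pass at either age (-0.17 ± 0.21 and -0.045 ± 0.24). In the comparison of the treated groups 3 of the 49 genes (Lfng and Furin among them) were higher and 1 (Maml3) lower in aged mice, where 2.46% of all genes were higher and 1.27% lower. For the difference of the responses edgeR called 0 of 49, 9 were at an unadjusted p below 0.05, and DESeq2 called 2. Of all 14113 genes, edgeR called 1 higher and 1 lower, 1758 were at an unadjusted p below 0.05, and DESeq2 called 183 higher and 99 lower. Nothing is read from these counts about the wider list. Between untreated mice of the 2 ages edgeR and DESeq2 called 0 of 49.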

How the data were processed

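Gene expression was measured in 11 whole pancreas libraries, 1 per numbered mouse. Per the submitters' processing notes, reads were aligned to mm10 with HISAT2 2.0.5 and counted per gene with featureCounts 1.5.0-p3. RNA was captured by poly(A) and read as 150-base pairs, per the labels' protocols. The deposited count table holds whole-number read counts, not normalised, for 54532 genes. The authors' deposited comparison tables hold log2 fold changes and adjusted p-values, per the file headers, and are named wherever used. A deposited FPKM table was not used. How strand was set, which annotation release was used and what tool made those comparison tables is not given in the sources used here.

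From the counts, edgeR 4.0.16 (R 4.3.3) kept 14113 genes (filterByExpr with 4 groups), scaled libraries by TMM and fitted 1 model with 4 groups over all 11 libraries. Quasi-likelihood F tests covered 5 comparisons, with Benjamini-Hochberg adjustment over all genes tested and a threshold of 0.05. The SE of a log2 fold change was its size over the square root of F. Levels are TMM-scaled CPM, divided by the deposited gene length where genes are compared.

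The members and lists were chosen with earlier results of these data known. All 10 members are named. Of the wider list, 11 genes were always named, with up to 2 called genes of smallest p per role in each caerulein response. A gene of that list enters the counts but is not reported here by name or in a figure.

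Alternatives were a filter of 10 counts in every library of a group, no filter, DESeq2 size factors, library totals alone, the 25 most abundant genes left out of scaling, DESeq2 1.42.0, a replicate block by mouse number, a lymphoid covariate, only the groups compared, and each library left out. Deviations from the group mean were correlated between untreated and caerulein libraries. Same-numbered young pairs stood at 0.106, 0.149 and 0.114, and differently numbered young pairs ranged from -0.240 to 0.149. Same-numbered aged pairs stood at 0.0051 and 0.130. By the rule used the numbers could pair the young mice, but a differently numbered pair was as high and no label says that mice were paired. The main model therefore held no pairing, and the replicate block is given only as an alternative. P-values measure the spread between these mice. Reads shared by overlapping genes stand as counted by the authors.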

Additional observations from a re-analysis of the deposited data

Results flagged for a closer look

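The 2 caerulein responses of Dtx4 differed by -1.76 ± 0.20 on the log2 scale (aged minus young), with responses of 2.47 ± 0.14 in young and 0.71 ± 0.15 in aged mice. All 3 aged caerulein libraries, at 18.5 to 22.8 CPM, lay below all 3 young ones, at 55.9 to 68.5 CPM, while the untreated libraries of the 2 ages lay between 10.7 and 14.4 CPM. What drew attention was the contrast with which the gene had been chosen, so its call is a description and no independent evidence. That call was lost in 6 of the 11 fits that left out a library (values from -1.92 to -1.60), with a replicate block (-1.75) and with library totals (-1.66).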

How the results depend on the processing

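Of 972 values of the 10 genes under the alternatives, 943 kept their side of the threshold, 15 lost a call, 14 gained one and 0 were counted as reversed. A change of sign was counted only for a value called in the main fit or in the alternative. Values called in neither could change sign and stand among the 943, as Jag2 did with library totals alone (0.17 in young and 0.26 in aged mice). With library totals alone 4 members were called in young mice in place of 7, all 4 of them higher. Over all genes that scaling took the young calls from 3888 higher and 3488 lower to 5314 higher and 1269 lower. Under it 4 values of the wider list changed sign, each with a call in the main fit or under library totals. Ncstn (0.26 in young mice) and Kat2b (0.16 in aged mice) lost a call as lower. Aph1a (0.43 in young mice) and Mib1 (0.60 in aged mice) were called higher under library totals, and Mib1 had no call in the main fit. In untreated mice the count of all genes called (13) became 707 with no filter (with 2 members, Notch1 and Notch2), 3 with library totals, 63 with DESeq2, 47 with the lymphoid covariate, 2 with only the groups compared and 2 to 55 with a library left out. Between the treated groups it went from 526 to 814, 215, 913, 1792, 1686 and 171 to 1921 in that order. There the members called went from 1 to 2 with only the groups compared and to between 1 and 2 with a library left out, and the wider list from 4 to 8, 2, 7, 9, 9 and 2 to 9. For the difference of the responses the count of all genes (2) became 674 with no filter, 0 with library totals, 282 with DESeq2, 281 with the lymphoid covariate and 0 to 311 with a library left out. The members called there (1) became 3, 0, 2, 2 and 0 to 2, and the wider list (0) became 1 with no filter, 2 with DESeq2, 3 with the lymphoid covariate and 0 to 3. The cause of these moves was not tested.

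With the mouse number as a replicate block, all genes called were 3 in untreated mice, 345 between the treated groups, and the members called for the difference were 0, since Dtx4 stood at -1.75 without a call (-1.66 with library totals, also without). The block changed no other call of a member. Groups of 2 or 3 mice, and 1 to 21 reads of Hey1 per library, limit the precision.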

Other observations

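For each member the gene with the most similar profile was sought over the 11 libraries, as the smallest root mean square difference of centred log2 CPM among 7089 protein-coding genes with a mean of at least 5 CPM. For Dtx2 it was Calm2, one of the calmodulin genes (0.119), with the cystine carrier Slc7a11 next (0.127). For Dtx4, Epn3, an endocytic adaptor, was closest (0.262), then Plekhh3 (0.285). Closest to Jag1 was Fads3 (0.153), to Notch1 Eif4e2 (0.157), to Rbpj Bms1 (0.119) and to Hes1 Casz1 (0.226). Notch2 was closest to Tmsb4x (0.284) and Dtx3l to Lgals3bp (0.341), a pair in which young untreated mouse 2 enters both profiles. Jag2 and Hey1 had no close match (Lgals9 at 0.419 and Itpr1 at 0.385). These distances are a description over shared libraries, with no test.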
